A study of Mus musculus with 8 samples.

Results

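Phospholipid scramblases are membrane proteins that let phospholipids pass between the inner and outer leaflets of a membrane. Here they are represented by 6 genes, Plscr1, Plscr2, Plscr3, Plscr4, Ano6 and Xkr8, of 22180 genes measured. The genes were chosen by name and family, in view of their mean log2 difference between the digoxin and vehicle arrays analysed here. Their differences between the groups are therefore given as a description, with no test. All 6 were measured, each by 1 probe set that carries a single gene symbol, and no filter on low values was applied.

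Hearts came from adult male mice aged 8 to 10 weeks, of the strain labelled C57BL6JRj (C57BL6/J in the growth protocol), kept on chow under 12 h of light and 12 h of dark. The digoxin group received 1 intraperitoneal injection of digoxin at 1 mg/kg at ZT5, where ZT0 is lights-on, and the vehicle group received the solvent (10% ethanol and 40% propylene glycol with citric acid and sodium phosphate) at the same time. Hearts were taken at ZT9, and 5 digoxin and 3 vehicle arrays (Affymetrix Mouse Gene 2.0 ST) were analysed. The design text speaks of 4 vehicle samples, of which 3 are used here. Digoxin is a cardiac glycoside that inhibits the Na/K-ATPase. Each array is taken as 1 mouse, since the titles number the samples, but no label says so, and p values measure only the spread between these samples.

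In a resting cell, phosphatidylserine is held in the inner leaflet of the plasma membrane by ATP-driven flippases. Scramblases end this asymmetry, and phosphatidylserine on the surface then serves as a platform for blood clotting and as a signal for the uptake of dying cells. ANO6 (TMEM16F) is activated by calcium and XKR8 by caspase cleavage. The PLSCR proteins were the first to be named scramblases, although their role in lipid scrambling in living cells is disputed. PLSCR1 is also known as an interferon-induced protein.

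Expression is given as log2 values that were centred probe set by probe set, and these show differences between arrays and no absolute level. It could not be checked from them that cardiomyocyte markers are present or which scramblase is the most abundant. In whole heart RNA, fewer cells of a type and less RNA per cell cannot be told apart. The vehicle array of replicate 3 had the widest spread of all probe sets, with an interquartile range of 0.216 against 0.0792 to 0.115 on the other 7 arrays. The array numbers in the labels place all vehicle arrays before all digoxin arrays, so treatment and array order cannot be told apart.

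Of the scramblase genes, Plscr2 stood far apart from the rest. Its level in digoxin hearts was 3.08 times that in vehicle hearts, while the other 5 lay between 0.885 and 1.20 times. Ano6 was the next highest, at 1.20 times the vehicle level. Plscr1 and Plscr3 were nearly level between the groups, and Plscr4 and Xkr8 had lower means in digoxin hearts. Among the 6 genes, 1 (Plscr2) had groups that did not overlap, with the digoxin arrays higher, and among all genes 8.16% had such groups, 4.4% with higher and 3.76% with lower digoxin arrays. Because the genes were chosen with this contrast in view, nothing is read from this count.

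**Figure D1:**
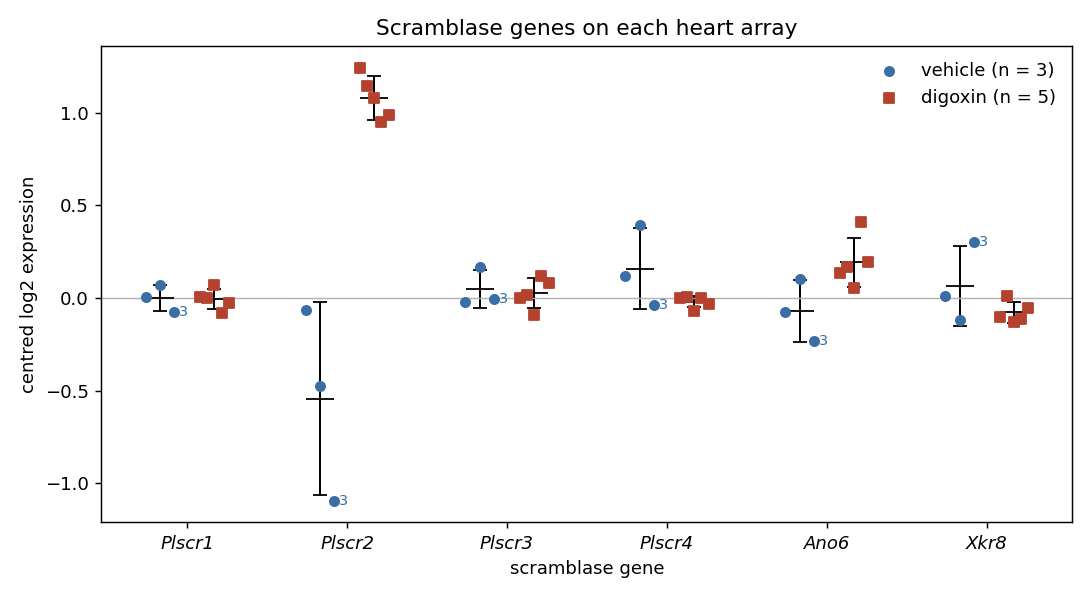
Centred log2 expression (vertical axis) of the 6 scramblase genes (horizontal axis) on each array, with 3 vehicle arrays as blue circles and 5 digoxin arrays as red squares; black lines are means with SD, and the digit 3 marks vehicle replicate 3. Plscr2 is the gene whose groups do not overlap, and its vehicle arrays range from -1.09 to -0.06.

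Plscr2, Plscr1 and Plscr4 lie in one cluster on mouse chromosome 9, together with Plscr5 and the protein-coding gene 1700057G04Rik. In RefSeq (GRCm38.p6), Plscr2 occupies chr9:92275602-92297752 and begins 3.04 kb after the end of Plscr1 (chr9:92250194-92272561). Plscr4 (chr9:92457372-92493513) starts 182 kb beyond the start of Plscr2. Upstream windows of 4 of the 6 genes were found in the RefSeq promoter table, and those of Plscr2 and Xkr8 were not analysed here. The 250 bases before the start site used in that table are shown for Plscr1 and Plscr4, the measured PLSCR genes on either side of Plscr2, and for Ano6, which had the next highest difference. They are on the plus strand of GRCm38.p6, at chr9:92249944-92250193, chr9:92457128-92457377 and chr15:95790593-95790842, with matches to the motifs searched in capitals. The Plscr4 window ends a few bases inside the outer bounds of the gene given above.
Plscr1: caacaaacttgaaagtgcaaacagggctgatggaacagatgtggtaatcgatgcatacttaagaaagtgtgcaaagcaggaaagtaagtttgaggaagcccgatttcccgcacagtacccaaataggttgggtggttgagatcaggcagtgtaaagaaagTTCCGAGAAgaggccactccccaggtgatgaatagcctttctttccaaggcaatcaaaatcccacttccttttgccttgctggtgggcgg
Plscr4: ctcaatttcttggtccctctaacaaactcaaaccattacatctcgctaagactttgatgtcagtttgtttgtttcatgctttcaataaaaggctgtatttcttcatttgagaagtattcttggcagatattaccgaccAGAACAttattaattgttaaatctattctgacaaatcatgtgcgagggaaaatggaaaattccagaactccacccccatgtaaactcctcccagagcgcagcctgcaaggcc
Ano6: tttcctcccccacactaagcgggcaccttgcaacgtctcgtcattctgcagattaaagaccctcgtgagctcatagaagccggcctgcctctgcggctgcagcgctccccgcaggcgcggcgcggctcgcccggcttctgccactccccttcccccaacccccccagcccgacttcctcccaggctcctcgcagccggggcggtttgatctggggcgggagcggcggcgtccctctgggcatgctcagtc

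Both strands were searched for 5 motifs. The interferon-gamma activated site TTCNNNGAA was found in the Plscr1 window, beginning 90 bases before the start, and in 7.02% of 32851 windows of all genes, in which a gene with several starts counts more than once. The hexamer arm of the glucocorticoid response element, AGAACA, was found in the Plscr4 window, 112 bases before the start, and in 16.1% of all windows. It also occurred at 2 places in 1 of 3 Plscr3 windows. The full element (that hexamer, then NNN, then its reverse complement), the interferon-stimulated response element (GAAA repeated after NN) and the E-box CACGTG were in no window of these 4 genes, and in 0.00913%, 2.98% and 6.02% of all windows. The Ano6 window, with 68.4% G and C, held none of the 5 motifs. These are matches of letters in a short window and not binding sites.

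Plscr2 (Entrez 18828) encodes a PLSCR family member that has been studied less than PLSCR1. In digoxin hearts its centred log2 values were 1.24, 1.14, 1.08, 0.95 and 0.99 in replicates 1 to 5. In vehicle hearts they were -0.06, -0.47 and -1.09 in replicates 1 to 3. All digoxin arrays lay above all vehicle arrays, and the lowest digoxin array was 1.01 above the highest vehicle array. The means were 1.08 ± 0.12 (SD, n = 5) and -0.54 ± 0.52 (SD, n = 3), a log2 difference of 1.62 with an SE of 0.19. In the order of differences over all 22180 genes Plscr2 was at position 8 from the top.

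The digoxin arrays of Plscr2 lay close together, within 0.29, while its vehicle arrays spanned 1.03. The SD of Plscr2 among vehicle arrays was exceeded by that of 0.361% of all genes, and its SD among digoxin arrays by 20.6%. Vehicle replicate 3 was 0.83 below the mean of the other vehicle arrays, and 0.302% of genes were lower than that by the same measure. Without vehicle replicate 3, the array of widest spread, the difference of Plscr2 was 1.35, and when vehicle replicate 1 was left out it was 1.86. Vehicle replicate 3 was the lowest of the vehicle arrays in 60.0% of the 210 genes called higher in digoxin hearts, in 52.2% of the 92 called lower and in 39.7% of all genes. The calls used these same vehicle values. The endothelial marker mean was also lowest on that array (-0.20, against -0.11 to 0.02 on the other 7), over 8 of 8 markers measured, of which 1 rose. The atrial marker mean, over 6 of 7, was 0.29 there against 1.58 and 2.39 on the other vehicle arrays. On the digoxin arrays the atrial mean ranged from -0.45 to 1.88, and the 0.29 lay within that range. The part of these in the Plscr2 values was not tested.

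The genes with the profile most like that of Plscr2 were sought among 17321 named genes, by the root mean square distance over the 8 arrays after centring each gene on its own mean. The nearest was Nt5e, which encodes the ectonucleotidase CD73 that makes adenosine, at a distance of 0.18 on the log2 scale. It was followed by Bcl2l1, the gene of the anti-apoptotic protein Bcl-xL (0.22), the mitochondrial nucleotide carrier gene Slc25a33 (0.22), the histone methyltransferase gene Setdb2 (0.23) and the alpha-arrestin gene Arrdc3 (0.27). Nt5e was the 1 gene within 0.2. Its vehicle values were 0, -0.28 and -0.63 in replicates 1 to 3, in the same order as those of Plscr2, and its digoxin values lay between 0.94 and 1.19. Since the treatment difference dominates this distance, it mainly finds genes with a difference of like size, and the log2 differences of these 5 genes were between 1.27 and 1.65. Among the scramblases, the profile nearest to Plscr2 was that of Ano6, at 0.71, and the farthest was that of Xkr8, at 0.93.

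Plscr1 (Entrez 22038), the immediate neighbour of Plscr2, encodes the calcium-binding, palmitoylated founding member of the family, which also occurs in the nucleus. Its values were 0.01, 0, 0.07, -0.08 and -0.03 in digoxin replicates 1 to 5 and 0.0035, 0.07 and -0.07 in vehicle replicates 1 to 3. The groups overlapped over nearly their whole ranges, and no array stood apart. The means were -0.0069 ± 0.05 (SD, n = 5) and 0.00038 ± 0.07 (SD, n = 3), and the difference was -0.0073 with an SE of 0.05. A log2 difference above that of Plscr1 was seen in 48.0% of all genes.

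Plscr4 (Entrez 235527), at the far end of the cluster, had values of 0.00045, 0.0063, -0.07, 0 and -0.03 in digoxin replicates 1 to 5. In vehicle replicates 1 to 3 they were 0.12, 0.39 and -0.04. The digoxin arrays kept within 0.08, and vehicle replicates 1 and 2 lay above them all, while vehicle replicate 3 lay among them. The means were -0.02 ± 0.03 (SD, n = 5) and 0.16 ± 0.22 (SD, n = 3), with a difference of -0.18 (SE 0.09). The size rests on single vehicle arrays, since it was -0.06 when vehicle replicate 2 was left out and -0.27 when vehicle replicate 3 was. With array weights, which lower the part of the most variable arrays, it was -0.30.

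The other genes of the cluster differed little in their means. Plscr5, a further PLSCR gene, had a log2 difference of 0.02 (SE 0.05, adjusted p = 0.903 in limma), and -0.035 without vehicle replicate 2. 1700057G04Rik, which starts 33.7 kb beyond the start of Plscr2, had a difference of -0.02 (SE 0.04, adjusted p = 0.850 in limma). Neither passed the test, and both had groups that overlapped. Beyond the cluster, the collagen lysyl hydroxylase gene Plod2 stood at 0.20 (SE 0.08, adjusted p = 0.369 in limma), Dipk2a at -0.23 (SE 0.06, adjusted p = 0.165, groups without overlap), and on the other side the zinc finger genes Zic1 at -0.08 and Zic4 at 0.02 (adjusted p = 0.546 and 0.915). None of these 6 neighbours passed, and at an unadjusted p under 0.05 Plod2 was higher and Dipk2a lower. They are neighbours in the order of measured genes. From the start of Plscr2, Plod2 starts at 264 kb, Dipk2a at 2242 kb, and Zic1 and Zic4 at -918 and -910 kb. Dipk2a passed with array weights (-0.25, adjusted p = 0.0419). Sequences of the probes were not used here, so cross-hybridisation between PLSCR genes was not tested.

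**Figure D2:**
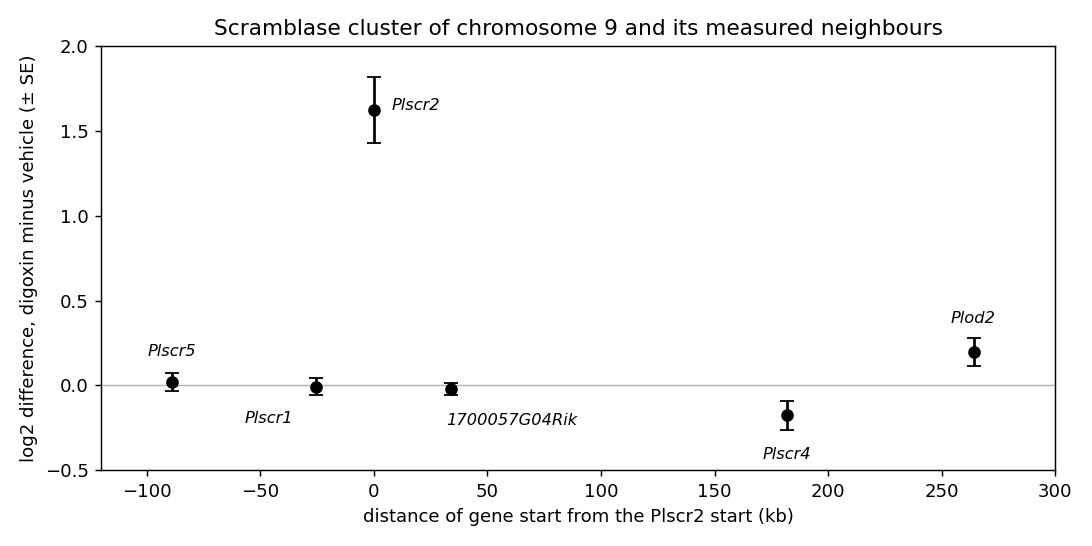
Log2 difference between digoxin (n = 5) and vehicle (n = 3) hearts (vertical axis, points with SE) against the distance of each gene start from that of Plscr2 in kb (horizontal axis). Plscr2 lies at 1.62, while Plscr5, Plscr1 and 1700057G04Rik lie between -0.02 and 0.02 and Plscr4 lies at -0.18. Dipk2a, Zic1 and Zic4 lie farther away and are not shown.

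Plscr3 (Entrez 70310, chr11:69846372-69852058) lies outside the cluster and encodes the mitochondrial member of the family, which acts on cardiolipin. Its values were 0, 0.02, -0.09, 0.12 and 0.08 in digoxin replicates 1 to 5 and -0.02, 0.16 and -0.0053 in vehicle replicates 1 to 3. The groups overlapped, and both extremes of the digoxin group lay within 0.21 of each other. The means were 0.03 ± 0.08 (SD, n = 5) and 0.05 ± 0.10 (SD, n = 3), a difference of -0.02 (SE 0.06). A second probe set carries the symbols Tnk1 and Plscr3 together and was left out because it names no single gene. On it the digoxin mean was -0.09 ± 0.10 (SD, n = 5) and the vehicle mean 0.11 ± 0.20 (SD, n = 3), and 1 array, vehicle replicate 3 at 0.34, lay far above the other vehicle arrays at 0 and -0.0014.

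Ano6 (Entrez 105722, chr15:95790843-95975472) encodes TMEM16F, the calcium-activated scramblase needed for phosphatidylserine exposure on platelets. Its values in digoxin replicates 1 to 5 were 0.13, 0.16, 0.06, 0.41 and 0.19. In vehicle replicates 1 to 3 they were -0.08, 0.10 and -0.23. The groups overlapped by 1 array on each side, since digoxin replicate 3 lay 0.05 below vehicle replicate 2. The means were 0.19 ± 0.13 (SD, n = 5) and -0.07 ± 0.17 (SD, n = 3), a difference of 0.26 (SE 0.09) that 3.49% of all genes exceeded. It was 0.18 without vehicle replicate 3, 0.14 with array weights, and 0.12 without vehicle replicate 3 and digoxin replicate 4 together, the lowest vehicle and the highest digoxin array for this gene. The mean of platelet markers overlapped between the groups, and lay between -0.24 and 0.09 in digoxin hearts and between -0.07 and 0.11 in vehicle hearts over 7 of 8 markers measured, of which none passed in limma and none had an unadjusted p under 0.05. On digoxin replicate 4 the macrophage marker mean was also the highest of the 8 arrays (0.24, over 8 of 8 markers). Vehicle replicates 1 and 2 came close to it, at 0.18 and 0.19. The lymphocyte mean was highest on digoxin replicate 4 as well (1.18, against -0.06 to 0.09 on the others, over 7 of 8). The part of both means in the Ano6 value was not tested. Without digoxin replicate 4 the difference of Ano6 was 0.21. Its profile was not a rare one, since 8580 of 17321 genes lay within a distance of 0.2 of it. The genes with the nearest profiles were Dock9, a guanine nucleotide exchange factor gene (distance 0.04, log2 difference 0.32), Entpd1, the gene of the ectonucleotidase CD39 (0.05, 0.24), and Tacc1 (0.06, 0.20), none of which passed in limma (adjusted p = 0.153, 0.210 and 0.407), although Dock9 passed with quantile normalization (0.29, adjusted p = 0.0350).

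Xkr8 (Entrez 381560, chr4:132724901-132732614) encodes the scramblase that caspases switch on in apoptotic cells. Its values in digoxin replicates 1 to 5 were -0.10, 0.01, -0.13, -0.11 and -0.05, and in vehicle replicates 1 to 3 they were 0.01, -0.12 and 0.30. Vehicle replicate 3 was high and the other vehicle arrays lay within the digoxin range. The means were -0.08 ± 0.06 (SD, n = 5) and 0.06 ± 0.22 (SD, n = 3), and the difference was -0.14 (SE 0.09). Nearly all of it came with 1 array, because without vehicle replicate 3 the difference was -0.02, and with array weights it was -0.01.

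The 4 genes with small differences had many near neighbours in profile, more than the 8580 of Ano6. For Plscr1 and Plscr3, 15746 and 15477 of 17321 genes lay within a distance of 0.2, and for Plscr4 and Xkr8, 12877 and 11437. The nearest were Ppp3ca, Fam229b and Aadacl3 for Plscr1, at 0.02 to 0.03, and Pard6g, Ercc6 and Trafd1 for Plscr3, at 0.02 to 0.03. They were Bace2, Tjp1 and Cyp2r1 for Plscr4, at 0.03 to 0.04, and Hilpda, Ttbk1 and Defb25 for Xkr8, at 0.03.

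**Figure D3:**
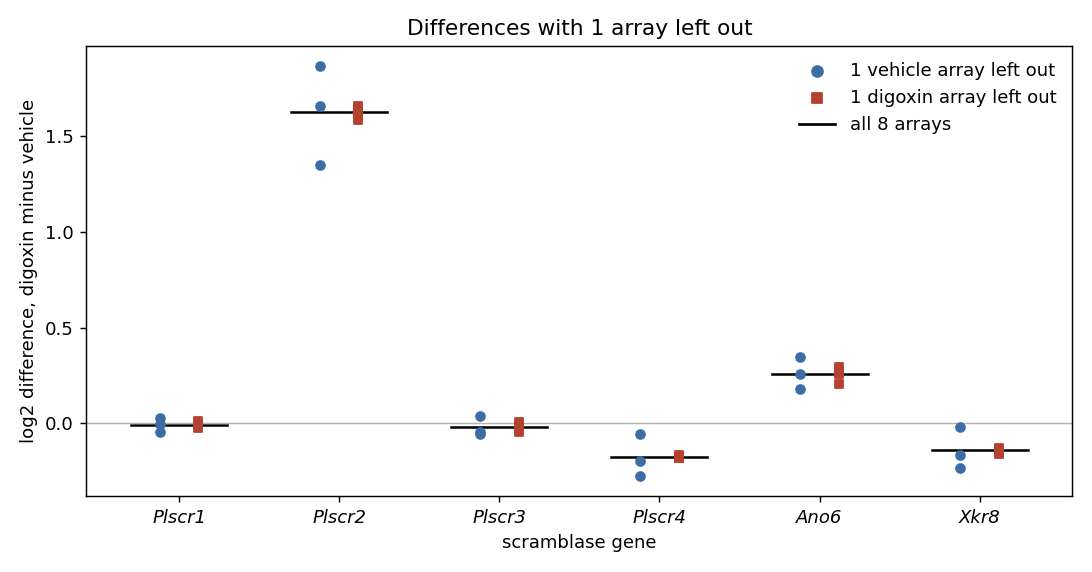
Log2 difference between digoxin and vehicle hearts (vertical axis) for each scramblase gene (horizontal axis) with all 8 arrays (black line), with 1 vehicle array left out (blue circles) and with 1 digoxin array left out (red squares). Plscr2 stays between 1.35 and 1.86, and for each gene the largest move comes from leaving out a vehicle array.

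Lists were drawn up of the wider machinery of membrane asymmetry, and of caspases, phosphatidylserine binding, clotting and the interferon response. The 9 lists held 148 measured genes other than the 6 scramblases. In limma, at a threshold of 0.05 for the adjusted p, 3 of them rose, 1 fell and 144 did not pass. Of all 22180 genes 302 passed (1.36%), with 0.947% rising and 0.415% falling. At an unadjusted p under 0.05, 6.32% of all genes were higher and 5.99% were lower, which is the background of the unadjusted counts below. The genes that rose were Abca1, Atp10d and Mertk, and the gene that fell was Parp14, of the interferon list. The median log2 difference over the 148 genes was -4.7e-05, and over all genes it was -0.01. The lists were chosen with earlier results of these arrays known.

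Among 25 other genes with reported or proposed scramblase activity or close relatives of them, none rose and none fell in limma, and 2 (8.0%) were higher at an unadjusted p under 0.05, near the 6.32% of all genes. They include the remaining anoctamins and XK-related genes and the autophagy scramblases Atg9a, Tmem41b and Vmp1. The 2 with the smallest p were Serinc3 at 0.14 (SE 0.04, adjusted p = 0.196 in limma) and the muscle anoctamin gene Ano5 at 0.34 (SE 0.11, adjusted p = 0.255). The median over the list was 0.02. For the XKR8 chaperones, Bsg (basigin) stood at 0.15 and Nptn (neuroplastin) at -0.07, and neither passed in limma (adjusted p = 0.294 and 0.692), with Bsg at an unadjusted p under 0.05.

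Flippases return phosphatidylserine and other lipids to the inner leaflet. Of 17 measured P4-ATPase and CDC50 genes, 1 rose and 16 did not pass in limma, with a median of 0.0064. At an unadjusted p under 0.05, 3 were higher (17.6%) and 2 lower (11.8%). The gene that rose was Atp10d, with values of 0.58, 0.44, 0.48, 0.58 and 0.46 in digoxin replicates 1 to 5 and 0.0057, 0.14 and -0.41 in vehicle replicates 1 to 3. All digoxin arrays were above all vehicle arrays, and the difference was 0.59 (SE 0.11, adjusted p = 0.041 in limma). RefSeq lists Atp10d of this strain as a transcribed pseudogene. When arrays were left out one at a time, the call was lost in 6 of 8 fits and held without vehicle replicate 2 or 3 (highest adjusted p = 0.104, without digoxin replicate 5). It was also lost with trend and robust variance (adjusted p = 0.0928), and the difference was 0.44 without vehicle replicate 3.

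ABC transporters carry lipids outward. Of 8 measured genes, 1 rose and 7 did not pass in limma, and the median was 0.10. At an unadjusted p under 0.05, 2 were higher (25%) and 0 lower. The gene that rose was Abca1, the exporter of cholesterol and phospholipids to apolipoprotein A-I. Its values were 0.37, 0.51, 0.61, 0.62 and 0.46 in digoxin replicates 1 to 5 and -0.11, 0.01 and -0.22 in vehicle replicates 1 to 3. The groups did not overlap, and the difference was 0.62 (SE 0.08, adjusted p = 0.0055 in limma), and the call held in all 8 fits with 1 array left out (adjusted p = 0.0070 to 0.0273).

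**Figure D4:**
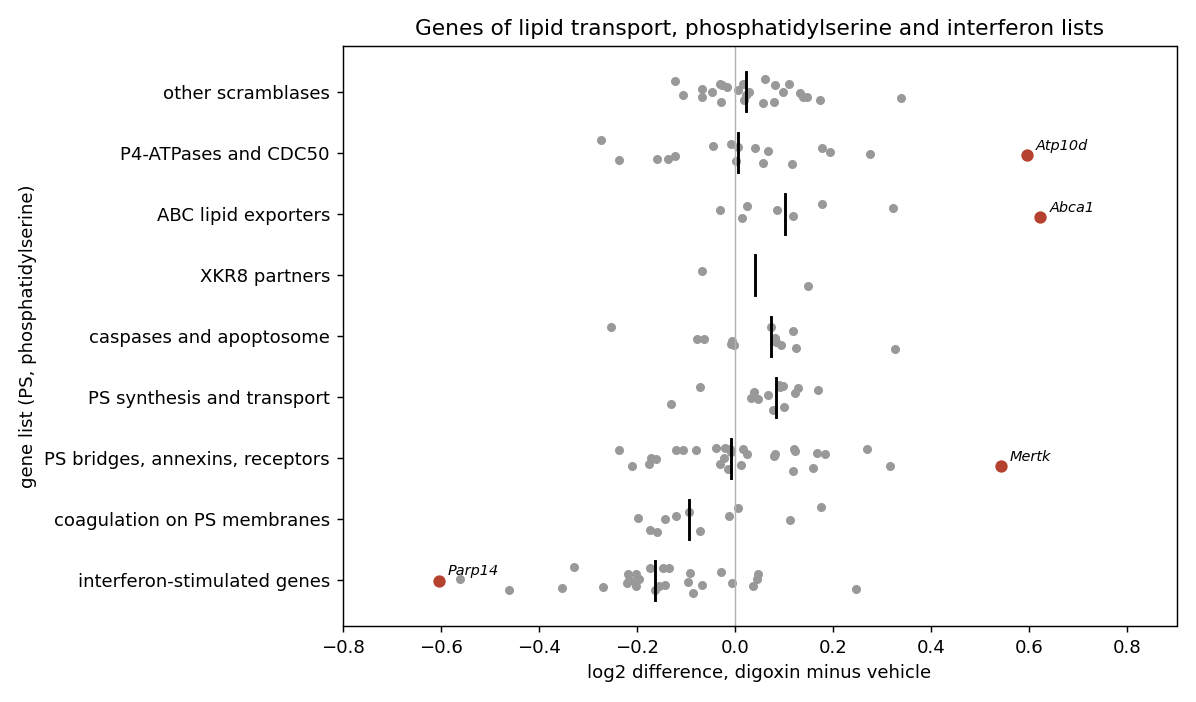
Log2 difference between digoxin (n = 5) and vehicle (n = 3) hearts (horizontal axis) for the measured genes of 9 lists (vertical axis), where each point is 1 gene, black bars are list medians, and large red points passed limma at an adjusted p of 0.05. Atp10d, Abca1 and Mertk lie between 0.54 and 0.62, Parp14 at -0.60, and most other genes near 0.

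Genes upstream of XKR8 did not pass. Of 13 measured caspase and apoptosome genes, none rose and none fell in limma, and at an unadjusted p under 0.05 there was 1 higher and 1 lower (7.69% each), near the shares of all genes. These were Birc2, an inhibitor of apoptosis (0.33, SE 0.11, adjusted p = 0.241 in limma), and the initiator caspase gene Casp8 (-0.25, SE 0.10, adjusted p = 0.357). Birc2 stood at 0.46 without vehicle replicate 1, where it passed (adjusted p = 0.0420).

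Genes for the supply of phosphatidylserine gave no call either. None of 14 genes of its synthesis and transport rose or fell in limma, and none had an unadjusted p under 0.05. The median was 0.08, and 12 of 14 differences were above 0, as were 44.4% of those of all genes. Vehicle replicate 3, the array of widest spread, was below 0 for most of these genes, with values from -0.38 to 0.12. Its part in the 12 of 14 was not tested. Gramd1c (0.09, adjusted p = 0.515) and Osbpl5 (-0.07, adjusted p = 0.535) had the smallest p in limma.

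Of 29 genes of proteins that bind phosphatidylserine or take up cells that show it, 1 rose and 28 did not pass, with a median of -0.0083. The list was mixed in direction. At an unadjusted p under 0.05, 4 were higher and 4 lower (13.8% each), against 6.32% and 5.99% of all genes. Mertk, the gene of a receptor tyrosine kinase by which macrophages take up apoptotic cells, had values of 0.56, 0.42, 0.42, 0.74 and 0.71 in digoxin replicates 1 to 5 and 0.08, 0.09 and -0.09 in vehicle replicates 1 to 3. The groups did not overlap, and the difference was 0.54 (SE 0.09, adjusted p = 0.0269 in limma). When arrays were left out one at a time, the call was lost in 5 of 8 fits (without digoxin replicate 1 or 5 or any vehicle array; highest adjusted p = 0.0730, without vehicle replicate 2), and with trend and robust variance (adjusted p = 0.0967). The macrophage marker mean overlapped between the groups, from -0.03 to 0.24 in digoxin hearts and from -0.09 to 0.19 in vehicle hearts over 8 of 8 markers, and its part in the Mertk value was not tested. The list of clotting genes, not all of whose proteins work on phosphatidylserine membranes, gave no call among 11 measured in limma. Of the 11, 2 were lower at an unadjusted p under 0.05, 18.2% against 5.99% of all genes. These were F3 (tissue factor, -0.17, adjusted p = 0.229) and Thbd (thrombomodulin, -0.20, adjusted p = 0.277). Thbd passed with array weights (-0.30, adjusted p = 0.0390).

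Interferon-stimulated genes were included because Plscr1 belongs to them. Of 29 measured, none rose, 1 fell and 28 did not pass, and 9 were lower at an unadjusted p under 0.05 while 0 were higher, which is 31.0% against 5.99% of all genes. The median was -0.16, and 4 of 29 differences (13.8%) were above 0, against 44.4% over all genes. Parp14, an ADP-ribosyltransferase gene, had values between -0.45 and -0.35 in digoxin hearts and of 0.31, 0.29 and 0.03 in vehicle replicates 1 to 3. Its groups did not overlap, and the difference was -0.60 (SE 0.07, adjusted p = 0.0042 in limma), and the call held in all 8 fits with 1 array left out (adjusted p = 0.00072 to 0.0255). Plscr1 itself, at -0.0073, lay above the median of this list.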

How the data were processed

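Total RNA of mouse hearts was measured on Affymetrix Mouse Gene 2.0 ST arrays. Per the design text, the authors used Robust Multi-array Average in a Galaxy suite, and the submitters' processing notes name limma. Versions are not stated there. In the deposited log2 values each probe set is centred on a constant that is not stated, with column medians between -0.0058 and 0.0087, and the log base is taken from the normalization method. Centring cancels in differences between arrays if the constant is the same for all arrays.

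Of 34351 probe sets, 23521 carried 1 gene symbol in the platform annotation, 1814 several and 9016 none. Those with 1 symbol were averaged to 22180 genes. Digoxin (5 arrays) was compared with vehicle (3 arrays) with lmFit and eBayes of limma 3.58.1 under R 4.3.3 (two-sided, no covariate, Benjamini-Hochberg adjustment over all genes, threshold 0.05). SE is that of the moderated fit and SD is between arrays. No 2 arrays shared more than 1.42% of their values. On simulated data over 22180 genes with 200 changed, 80% of log2 changes of 0.5 and 97% of those of 1 were recovered. Of the calls on the simulated data, 3.61% were false. Whether these rates hold for the arrays analysed here, where vehicle replicate 3 had the widest spread (interquartile range 0.216), was not tested.

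The members, lists and motifs were chosen with earlier results of these data known. Genes named are the 6 scramblases, in each list those past the test or otherwise the 2 of smallest p, the genes of nearest profile (5 for Plscr2, 3 for the others, without predicted, small RNA and receptor genes of smell), and 2 measured protein-coding neighbours on each side of the cluster genes. Marker lists of 10 cell types were averaged on each array. Alternatives covered normalization between arrays, probe sets, the variance model, array weights, thresholds, a block for the replicate number, and arrays left out. Sequences are from RefSeq, GRCm38.p6.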

Additional observations from a re-analysis of the deposited data

Results flagged for a closer look

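Among the 46 genes named or listed as members, 3 had 1 digoxin array far from the other 4, by Dixon's ratio of the gap to the whole range against the critical value of 0.71. Chance gives about 1 such case in 20 groups, and none of the 6 scramblases was among them. For Zic1, a neighbour of the chromosome 9 cluster in gene order, digoxin replicate 5 lay at -0.10 while the others lay between -0.02 and 0 (ratio 0.811). For Slc25a33, close to Plscr2 in profile, digoxin replicate 1 lay at 1.26 and the others between 0.96 and 1.01 (ratio 0.807). For Dock9, the nearest gene to Ano6 in profile, digoxin replicate 4 lay at 0.49 and the others between 0.21 and 0.28 (ratio 0.742). Digoxin replicate 4 was also the highest array for Ano6, and the lymphocyte marker mean (7 of 8 measured) was 1.18 there against -0.06 to 0.09 on the other 7 arrays. The part of this in the Ano6 and Dock9 values was not tested.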

How the results depend on the processing

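Each of the 6 scramblase differences moved by less than the SD pooled over both groups (0.06 to 0.31 by gene) in all 15 alternatives run for it. Some of these could hardly move them. Each scramblase gene has 1 probe set, so the alternatives on probe sets gave the same values. Centring each array on its median moved every gene alike, by 0.0041. Plscr2, Plscr4, Ano6 and Xkr8 did move by more than the SD of their digoxin arrays alone. Plscr2 lay between 1.35 and 1.86 with 1 array left out, Ano6 between 0.18 and 0.35, Plscr4 between -0.27 and -0.06, and Xkr8 between -0.23 and -0.02. Plscr1 (-0.04 to 0.03) and Plscr3 (-0.05 to 0.04) had either sign. With array weights the values were -0.30 for Plscr4, 0.14 for Ano6 and -0.01 for Xkr8. Plscr5, not past the test, lay between -0.035 (without vehicle replicate 2) and 0.063 with 1 array left out. Against 210 genes higher and 92 lower over all genes, 95 and 32 were called with trend and robust variance, 95 and 23 at a threshold of 0.01, and 327 and 166 at 0.1. The lower calls numbered 320 with array weights and 282 with both digoxin replicate 4 and vehicle replicate 3 left out. With 1 array left out, the higher calls ranged from 123 to 185 and the lower from 29 (without vehicle replicate 2) to 189 (without vehicle replicate 3). In the lists, against 3 higher and 1 lower, 1 was higher with trend and robust variance and 1 at 0.01, 3 were lower at 0.1, 7 lower with array weights and 6 lower when both of those arrays were left out, and with 1 array left out 1 to 2 were higher and 1 to 5 lower. The cause was not tested. With the replicate number as a block, 11 genes were higher and 1 lower in limma, and in the lists 0 were higher and 0 lower (7 and 9 at an unadjusted p under 0.05). Plscr2 stood at 1.70 in that fit. Replicates 4 and 5 exist in the digoxin group alone, so that fit compares replicates 1 to 3 and has less left to estimate the spread. The part of the replicate number itself in the lower count of calls was not tested. Deviations of same-numbered arrays from their group means correlated at -0.20, -0.02 and 0.02. Arrays of different numbers were not compared, so whether the numbers pair the arrays was not tested. The number of arrays limits the precision, and centred values give no signal over background.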
